A study of Mus musculus with 12 samples.

Results

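Histone deacetylases remove acetyl groups from lysines of histones and other proteins. The genes described here are 9 members of the zinc-dependent family, chosen by name and located in GENCODE mouse release M21: Hdac1, Hdac2 and Hdac3 of class I, Hdac4, Hdac5, Hdac7 and Hdac9 of class IIa, Hdac10 of class IIb and Hdac11, the single gene of class IV. They are 9 of 21938 protein-coding genes on chromosomes 1 to 19, X and Y. A peak was given to a gene when it overlapped the gene body or reached within 3 kb of any annotated transcription start site of that gene.

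The series asked where the acetyltransferase MOF (KAT8) sits on chromatin of visceral white adipose tissue, measured by chromatin immunoprecipitation and sequencing (ChIP-seq). Wild-type mice (Mof+/+) were compared with mice that carry a single functional copy of the gene in all cells (Mof+/-), on a C57BL/6 background, at 8 weeks of age and on a standard diet. Per the labels there were 12 libraries, 2 each of MOF ChIP, H3 ChIP and input DNA per genotype, making 6 groups, and the values analysed here are 1 peak list per genotype, in which no column names a replicate. No difference between the genotypes, or between genes, could therefore be set against the spread between animals, and no p-value is given. For Mof+/- the submitters' design notes name 3 animals, against 2 controls, whereas the labels list 2 replicates for either genotype. The study's reporting summary gives as many littermates as the labels give replicates. The tissue is a mixture of adipocytes, progenitors, blood vessels and immune cells, so more cells with MOF at a gene and more MOF per cell cannot be told apart. Of 8 adipocyte marker genes, 7 had a Mof+/+ peak and 4 had one within 1 kb of a start site, as 41.0% of all protein-coding genes did, and of 5 B cell marker genes 5 and 4 did. Of 5 marker genes each, 4 for T cells, 3 for progenitors and 1 each for macrophages, endothelium and mesothelium had a Mof+/+ peak, where 44.5% of all protein-coding genes did. Mof+/- peaks were found at 3 of these markers, Pax5 of B cells, Pdgfra of progenitors and Wt1 of mesothelium, and at 1.89% of all protein-coding genes. What these cells contributed to the peaks of deacetylase genes was not tested.

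In Mof+/+ tissue 19773 peaks were listed and in Mof+/- tissue 731, a ratio of 27.0. Every peak carries a fold enrichment, the ratio of fragments over its summit to the local input background, each with a pseudocount of 1 added. Its median was 3.4 over the Mof+/+ peaks and 4.29 over the Mof+/- peaks. The number of fragments behind each summit was recovered from the fold enrichment and the p-value, and was at least 11 in either list. The weakest peak of the Mof+/- list had a −log10 p-value of 4.72 and that of the Mof+/+ list 3.25, so weaker enrichment entered the Mof+/+ list.

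As background, acetyltransferases such as MOF place the acetyl groups, MOF chiefly on lysine 16 of histone H4, and deacetylases take them off. HDAC1 and HDAC2 are the deacetylase subunits of the SIN3, NuRD and CoREST corepressor complexes, and HDAC3 works inside a corepressor complex that nuclear receptors such as PPARγ recruit in adipocytes. Class IIa enzymes have weak catalytic activity of their own. They bind MEF2 transcription factors and move out of the nucleus when kinases phosphorylate them and 14-3-3 proteins hold them in the cytoplasm. In fat and muscle, class IIa enzymes together with MEF2 are known as regulators of the gene for the insulin-dependent glucose transporter GLUT4. HDAC10 is a cytoplasmic enzyme that deacetylates polyamines, and HDAC11 is best known as a remover of long fatty acyl groups.

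Many mammalian genes start in a CpG island, a stretch of DNA dense in CpG dinucleotides, and the deacetylase genes differed in this. Start sites are therefore shown by sequence, as the 200 bases upstream of the first start site within 1 kb of the CpG-richest one, 5′ to 3′ on the strand of the gene, taken from RefSeq GRCm38.p6 with CpG sites in capitals. They are shown for 3 genes with a Mof+/+ peak at that start site, Hdac2 (chr10:36974344-36974543, plus strand), Hdac4 (chr1:92180342-92180541, minus strand) and Hdac5 (chr11:102230167-102230366, minus strand), and for 2 without, Hdac9 (chr12:34906980-34907179, minus strand) and Hdac11 (chr6:91156465-91156664, plus strand).
Hdac2: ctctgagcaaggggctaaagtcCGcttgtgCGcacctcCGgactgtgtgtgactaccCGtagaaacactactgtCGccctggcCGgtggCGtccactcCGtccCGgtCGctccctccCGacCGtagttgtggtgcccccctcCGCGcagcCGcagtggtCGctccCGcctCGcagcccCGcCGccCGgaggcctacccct
Hdac4: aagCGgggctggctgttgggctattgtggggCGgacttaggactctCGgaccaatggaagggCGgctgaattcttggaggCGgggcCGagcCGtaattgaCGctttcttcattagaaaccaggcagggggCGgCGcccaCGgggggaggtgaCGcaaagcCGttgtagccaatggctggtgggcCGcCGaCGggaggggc
Hdac5: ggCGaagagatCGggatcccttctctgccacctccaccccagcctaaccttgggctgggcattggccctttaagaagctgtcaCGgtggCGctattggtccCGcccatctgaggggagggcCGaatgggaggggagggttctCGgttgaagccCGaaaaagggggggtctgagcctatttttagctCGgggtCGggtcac
Hdac9: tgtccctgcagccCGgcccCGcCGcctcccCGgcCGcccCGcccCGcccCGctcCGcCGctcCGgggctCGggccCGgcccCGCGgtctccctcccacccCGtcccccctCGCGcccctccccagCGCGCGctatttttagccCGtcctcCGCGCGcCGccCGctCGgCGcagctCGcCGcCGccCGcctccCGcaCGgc
Hdac11: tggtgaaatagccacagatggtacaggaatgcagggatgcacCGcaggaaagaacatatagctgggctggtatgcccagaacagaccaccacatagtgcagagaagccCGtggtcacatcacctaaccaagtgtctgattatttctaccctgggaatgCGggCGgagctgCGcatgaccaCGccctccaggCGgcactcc
These windows held 21 CpG sites in Hdac2, 16 in Hdac4, 10 in Hdac5, 35 in Hdac9 and 7 in Hdac11, against a median of 8 over the same window of all 21938 protein-coding genes. The densest of them, that of Hdac9, thus belonged to a gene without a peak there. The GC box, the letters GGGCGG on either strand and known as a site for SP factors, was found in 8 of the 9 deacetylase windows, all but that of Hdac7, and in 39.6% of all windows. Hdac9 had 5 copies and Hdac4 had 3. The CCAAT box was found in 3 of the 9 windows (Hdac1, Hdac4 and Hdac5) and in 31.2% of all. Neither the ETS letters CCGGAAG, present in 7.61% of all windows, nor the E-box CACGTG, present in 5.87%, were found in any of the 9. Copies that overlap were each counted, as in Hdac9, where neighbouring GC boxes share a base, and matches describe the letters only.

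In Mof+/+ tissue, 8 of the 9 deacetylase genes had a MOF peak, against 44.5% of all protein-coding genes. Hdac11 was the exception. Within 1 kb of one of the gene's own start sites, 7 of 9 had a peak, against 41.0% of all genes, and Hdac9 joined Hdac11 in having none. In the Mof+/- list 0 of 9 had a peak under the first rule, where 1.89% of all genes did, and 0 of 9 within 1 kb of a start site, where 1.32% did. With 9 genes and a background this low, the absence of Mof+/- peaks does not set the deacetylase genes apart from other genes.

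The 8 genes held 24 Mof+/+ peaks, 7 in class I, 14 in class IIa, 3 in class IIb and 0 in class IV. Of the 24, 0 overlapped a Mof+/- peak, while 2.5% of all 19773 Mof+/+ peaks did. The fold enrichment of the 24 ran from 2.35 to 6.19 with a median of 3.58, near the 3.4 of the whole list, and 12 to 27 fragments stood over each summit. Of the 24 peaks, 20 had a p-value at least as small as that of the weakest Mof+/- peak, as did 68.6% of all Mof+/+ peaks. Whether weaker MOF binding at these genes in Mof+/- tissue lies under the limit of that list, whose lowest input background was 2.26 fragments against 3.52, was not tested. The nearest Mof+/- peak to any of the genes lay 89.2 kb from Hdac5, at Ubtf. The others were 245 kb (Hdac10) to 5590 kb (Hdac2) away.

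**Figure D1:**
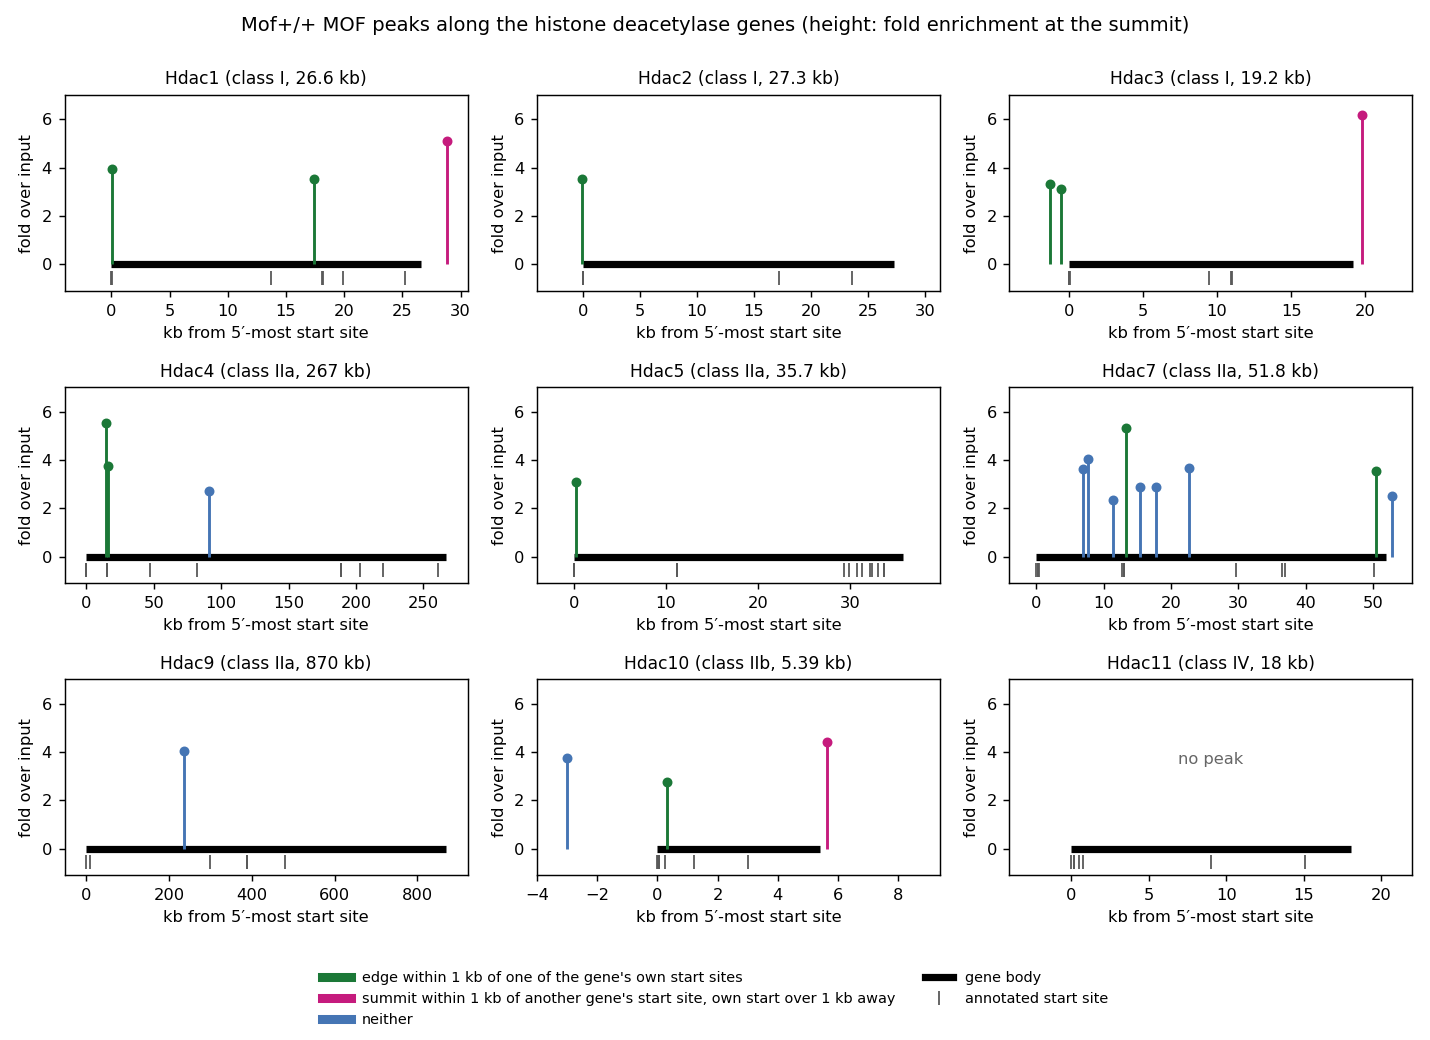
Mof+/+ MOF peaks along each of the 9 deacetylase genes; the x axis is the distance in kb from the 5′-most annotated start site along transcription, each stem is the summit of 1 peak and its height is the fold enrichment over input. Peaks that reach within 1 kb of an own start site (11 of 24) are green. Of the others, those with a summit within 1 kb of another gene's start site (3) are pink. The remaining 10 are blue, and Hdac11 has no stem.

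Position separated the 24 peaks into groups. Of them, 11 reached within 1 kb of a start site of the deacetylase gene itself, 3 others had their summit within 1 kb of the start site of a neighbour, and the remaining 10 lay elsewhere. Of the 11, 2 also had their summit within 1 kb of a neighbour's start site, so 5 summits in all did. By the nearest start site of any gene, 17 of 24 summits belonged to the deacetylase gene, and this differed by class. In class IIa it was 13 of 14, of which 9 were in Hdac7. In class I it was 3 of 7 and in class IIb, Hdac10 alone, 1 of 3. Median gene length was 26.6 kb in class I, 159.4 kb in class IIa and 5.39 kb for Hdac10.

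Class I came first by the strongest peak per gene. The strongest fold enrichment was 5.09 at Hdac1, 3.54 at Hdac2 and 6.19 at Hdac3, a median of 5.09. In class IIa it was 5.51 at Hdac4, 3.07 at Hdac5, 5.31 at Hdac7 and 4.04 at Hdac9, a median of 4.68, and Hdac10, the class IIb gene among the 9, had 4.42. The ranges of class I and class IIa overlapped. The median over all protein-coding genes with a peak was 3.98. With peaks within 1 kb of an own start site only, the order turned over: the class I median was 3.54, that of class IIa 5.31 from the 3 genes with such a peak, and Hdac10 had 2.74, the background median being again 3.98. The strongest peaks of Hdac1, Hdac3 and Hdac10 were the ones at neighbours, and the peak of Hdac9 also dropped out, so the order of class I and class IIa depended on which peaks were counted.

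Hdac1 (ENSMUSG00000028800.15, chr4:129516104-129542713, minus strand) had 3 Mof+/+ peaks and 0 Mof+/- peaks. The peak over its first start site, chr4:129542194-129543154, had a fold enrichment of 3.96 from 18 fragments (95% exact Poisson interval 10.7 to 28.4, counting error only), with the summit in coding sequence 100 bp inside the gene. An intronic peak at chr4:129525091-129525837 had 3.55. It lay 507 bp from the nearest start site of the retained-intron transcripts annotated there, and it held 9.37 CpG sites per kb where the start site peak held 70.8. The strongest, 5.09 from 22 fragments, spanned chr4:129513395-129514801 beyond the 3′ end of Hdac1, with its summit 260 bp from the start of Marcksl1, which encodes a MARCKS-like actin-binding protein. It was assigned to Hdac1 through one internal start site, 2717 bp from its edge.

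Hdac2 (ENSMUSG00000019777.16, chr10:36974544-37001889, plus strand) had the simplest pattern, a single peak at chr10:36974284-36975050. Its summit lay 89 bp upstream of the first start site, with a fold enrichment of 3.54 from 15 fragments (95% exact Poisson interval 8.4 to 24.7). The peak was 767 bp wide and held 83 CpG sites. Hdac1 and Hdac2, the closely related enzymes of the same complexes, thus both had MOF at their main start site with 3.96 and 3.54, a difference within the counting intervals of either.

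Hdac3 (ENSMUSG00000024454.16, chr18:37935844-37955016, minus strand) had a peak at both ends. The stronger one, at the 3′ end (chr18:37934266-37935930), had the highest fold enrichment of the 24, 6.19 from 27 fragments (95% exact Poisson interval 17.8 to 39.3), above 97.4% of the Mof+/+ list. Its summit lay 142 bp from the start of Diaph1, a gene for a formin that builds actin filaments, and 8752 bp from any start site of Hdac3. At the 5′ end, 2 weaker peaks of 3.12 and 3.32 came within 106 and 871 bp of the Hdac3 start site. Both summits were nearer to the start site of Rell2, at 46 and 404 bp, so none of the 3 summits was closest to Hdac3. They had 16 fragments (9.1 to 26.0) and 14 fragments (7.7 to 23.5), intervals that overlap that of the peak at Diaph1.

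The class IIa genes differed in where the peaks lay. Hdac5 had its peak at the 5′-most start site. In Hdac4 and Hdac7 the strongest peak was at an internal, CpG-rich start site and no peak was at the 5′-most one, and Hdac9 had no peak at any start site.

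Hdac4 (ENSMUSG00000026313.16, chr1:91928779-92195699, minus strand) has 11 annotated start sites. The 5′-most, with 14 CpG sites in the surrounding 1001 bp, was 14581 bp from the nearest peak. The start site of the protein-coding transcript Hdac4-202, 15358 bp downstream, has 127 CpG sites, more than in 97.3% of protein-coding genes, and lay between a pair of peaks. The upstream one (chr1:92180561-92181118) had a fold enrichment of 5.51 from 24 fragments (95% exact Poisson interval 15.4 to 35.7) and the downstream one (chr1:92179577-92180293) 3.76 from 16 fragments (9.1 to 26.0). The 200 bases shown above for Hdac4 fall in the gap, so neither peak covers them. The remaining peak, 2.71 from 13 fragments, lay in an intron, held 0 CpG sites and was 8617 bp from the nearest start site.

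Hdac5 (ENSMUSG00000008855.17, chr11:102194432-102230166, minus strand) had 1 peak, 308 bp wide, with 9.26% of the list narrower, over the 7 annotated start sites at its 5′ end. Its fold enrichment of 3.07 from 17 fragments (95% exact Poisson interval 9.9 to 27.2) was the lowest maximum of the 8 genes with a peak. The peak held 51 CpG sites, 166 per kb, the highest density of the 24.

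Hdac7 (ENSMUSG00000022475.19, chr15:97792664-97844502, minus strand), known for roles in lymphocytes and blood vessels, had 9 peaks. As many or more were found at 0.871% of protein-coding genes, and at 20 of the 2193 genes in the same decile by length. The strongest, chr15:97830717-97831743, had a fold enrichment of 5.31 from 23 fragments (95% exact Poisson interval 14.6 to 34.5) and covered the start site of Hdac7-201, which has 119 CpG sites and lies 13008 bp inside the gene. The 5′-most start site has 19 CpG sites and its nearest peak was 4860 bp away. The other 8 peaks had 2.35 to 4.04. One reached a start site near the 3′ end, and 6 lay in introns 6978 to 22589 bp from the 5′-most start site. The last, 2.51 from 12 fragments, lay beyond the 3′ end with its summit in an untranslated region of Slc48a1. Of the 9 peaks, 7 had a p-value at least as small as that of the weakest Mof+/- peak. The peaks covered 7849 bp of the gene and its flanks. Input was uneven here: the local background at the summits ran from 3.52 fragments under the peak with the highest fold enrichment to 8.35 under the one with the lowest.

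**Figure D2:**
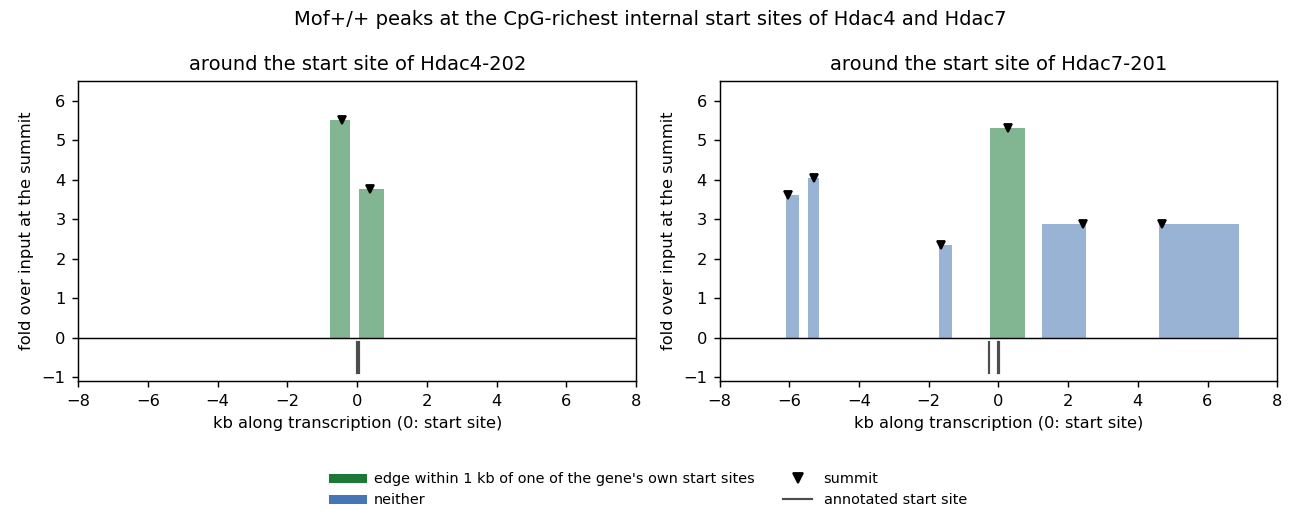
Mof+/+ peaks within 8 kb of the start sites of Hdac4-202 (left) and Hdac7-201 (right); bars span each peak in kb along transcription with the height giving the fold enrichment over input at the summit (triangle), and ticks under the line are annotated start sites. The Hdac4 start site lies between peaks of 5.51 and 3.76, and the Hdac7 one inside the peak of 5.31, which has weaker peaks on both sides.

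Base composition around the summits of class IIa peaks is shown with 121 bases each, on the strand of the gene and from the same genome with CpG sites in capitals, for the start site peak of Hdac7 (chr15:97831158-97831278), for the strongest of its peaks away from start sites (chr15:97836714-97836834) and for the lone peak of Hdac9 (chr12:34680792-34680912).
Hdac7 start site: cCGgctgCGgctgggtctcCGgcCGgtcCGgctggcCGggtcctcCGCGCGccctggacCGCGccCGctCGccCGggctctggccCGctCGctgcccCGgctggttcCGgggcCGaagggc
Hdac7 intron: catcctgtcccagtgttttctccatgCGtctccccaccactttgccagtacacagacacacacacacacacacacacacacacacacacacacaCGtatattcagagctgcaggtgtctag
Hdac9 intron: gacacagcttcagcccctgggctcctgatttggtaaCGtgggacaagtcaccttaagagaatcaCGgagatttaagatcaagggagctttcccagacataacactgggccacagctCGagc
The Hdac7 start site window held 19 CpG sites at 83.5% G and C, the Hdac7 intron window 2 at 51.2%, and the Hdac9 intron window 3 at 52.1%. The Hdac7 intron summit lies inside a run of CA repeats 40 bases long. Runs of at least 20 bases occurred in the same window of 1.39% of Mof+/+ peaks and of 1 of the 24. Its part in that peak was not tested.

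Hdac9 (ENSMUSG00000004698.10, chr12:34047580-34917095, minus strand) is the longest of the genes at 870 kb and had a single peak, chr12:34680483-34681159, with a fold enrichment of 4.04 from 18 fragments (95% exact Poisson interval 10.7 to 28.4). It was intronic, 236243 bp from the 5′-most start site and 61990 bp from the nearest of its own. Having a peak but none within 1 kb of a start site was uncommon, at 7.88% of genes with a peak. The start site of Hdac9-209, a retained-intron transcript, has 115 CpG sites, between Hdac2 (106) and Hdac4 (127), and was 132224 bp from the nearest peak. Of the 2187 genes in the same decile by CpG sites, 74.9% had a Mof+/+ peak at that start site. The other annotated start sites of Hdac9 have 2 to 13 CpG sites.

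Hdac10 (ENSMUSG00000062906.12, chr15:89123307-89128700, minus strand), the shortest gene at 5.39 kb, had 3 peaks. That over its own start sites, chr15:89127773-89128695, was weak, with a fold enrichment of 2.74 from 17 fragments (95% exact Poisson interval 9.9 to 27.2) over a local background of 5.57 fragments. Among protein-coding genes with a peak within 1 kb of a start site, 5.95% had a lower maximum. The strongest, 4.42, lay over the 3′ end with its summit 23 bp from the start of Tubgcp6, a gene for a subunit of the γ-tubulin ring complex. The third, 3.76, lay in an intron of Mapk12, which encodes the kinase p38γ, its edge 2324 bp upstream of Hdac10. The gene with the most peaks per 100 kb, 33.3, was therefore Hdac10, but 1 of its 3 peaks had its summit nearest to Hdac10.

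Hdac11 (ENSMUSG00000034245.10, chr6:91156665-91174692, plus strand) had no peak in either list. The nearest Mof+/+ peak was 39411 bp from the gene, at Nup210. Its start site region has 45 CpG sites, a number close to those of Hdac3 (49) and Hdac10 (44), and 40.8% of the 2284 genes in this decile by CpG sites had a peak there. An absence at Hdac11 was thus the more common state for a gene with such a start.

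Among the 79 annotated start sites of the 9 genes, 29 had a Mof+/+ peak within 1 kb: 9 of 17 in class I, 13 of 47 in class IIa, 7 of 8 in class IIb and 0 of 7 in class IV. Over all protein-coding genes 36.0% of start sites did, so the count for the family is near the background. Start sites with a peak had a median of 70 CpG sites (14 to 127) and those without a median of 15.5 (2 to 115). Many start sites of a gene lie within a few bases of each other and share a peak, so these are not independent counts. The CpG-richest start site had a peak in 7 of the 9 genes, against 39.7% of all protein-coding genes, and the 5′-most start site in 5 of 9, against 38.0% of all. A peak at such a start site was more common among CpG-rich genes in general. In the deciles of protein-coding genes by CpG sites, 74.9% had one in that of Hdac2, Hdac4, Hdac7 and Hdac9, 70.4% in that of Hdac5, 63.2% in that of Hdac1 and 40.8% in that of Hdac3, Hdac10 and Hdac11, so 39.7% is a low bar for these genes. Hdac4 and Hdac7 made up the difference between the 7 genes with a peak at the CpG-richest start site and the 5 with one at the 5′-most.

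**Figure D3:**
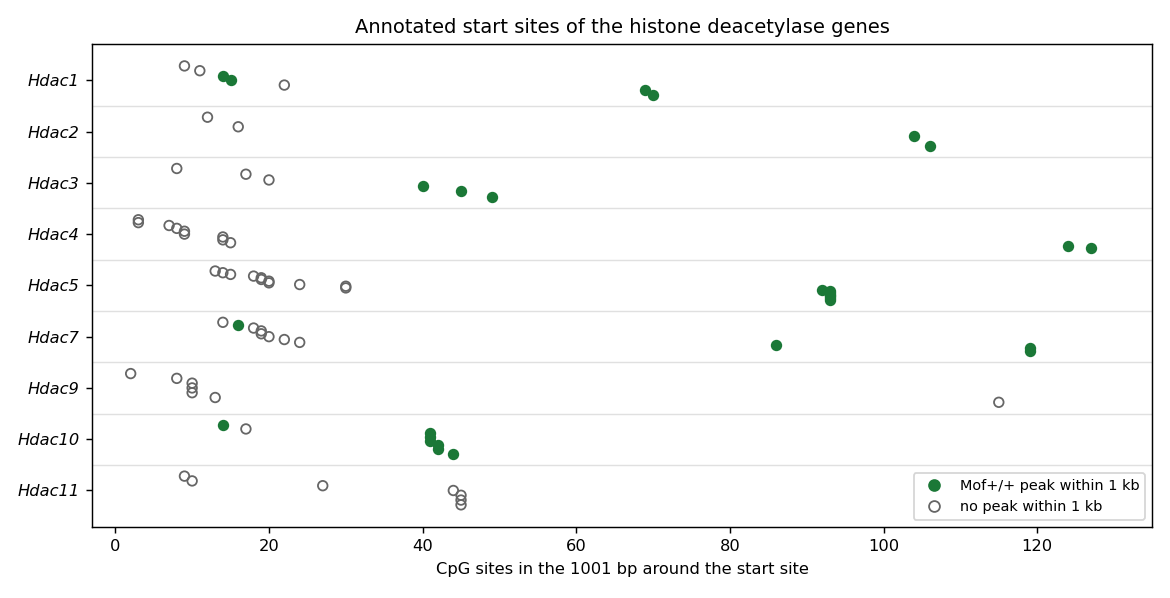
The 79 annotated start sites of the 9 deacetylase genes (rows), placed by the number of CpG sites in the surrounding 1001 bp (x axis); filled points have a Mof+/+ peak within 1 kb (29) and open points have none (50). Filled points lie mostly at the right, with the open point of Hdac9 at 115 CpG sites and those of Hdac11 at up to 45 as exceptions.

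The number of peaks did not follow gene length within the family. Class I genes had 3, 1 and 3 peaks, class IIa genes 3, 1, 9 and 1, and Hdac10 had 3. Per 100 kb of gene and flanks the values were 3.3 to 13.5 in class I and 0.115 to 16.1 in class IIa. In the longest decile of protein-coding genes, which holds Hdac4 and Hdac9, the median gene had 0 peaks and 44.9% had any.

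**Figure D4:**
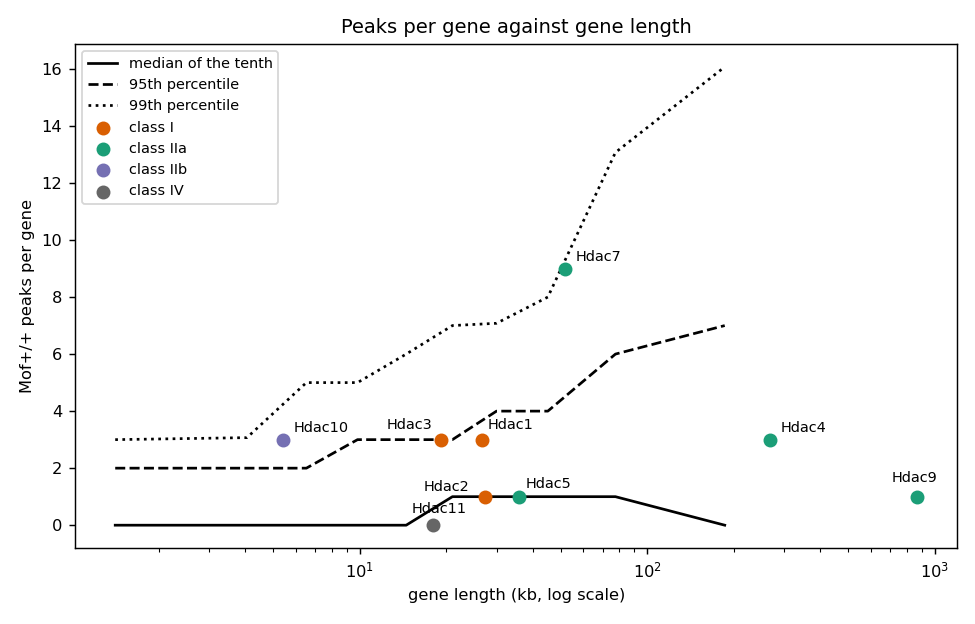
Mof+/+ peaks per gene (y axis) against gene length in kb (x axis, log scale) for the 9 deacetylase genes, coloured by class; black lines join the median, 95th and 99th percentile of all protein-coding genes in deciles by length. Hdac7, with 9 peaks, lies near the 99th percentile, and the other 8 genes have 0 to 3.

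The 2 other zinc-dependent deacetylase genes, Hdac6 of class IIb and Hdac8 of class I, are on chromosome X, are not among the 9 and had no peak in either list. The values given for class I and class IIb leave them out. The nearest Mof+/+ peaks were 30964 and 95275 bp from them. On chromosome X 12.4% of protein-coding genes had a Mof+/+ peak, and on the autosomes 46.4%.

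Genes of the complexes that HDAC1 and HDAC2 work in mostly had a Mof+/+ peak within 1 kb of a start site, as 41.0% of all protein-coding genes did. That share is not matched for CpG sites, and the part of CpG sites in the partner genes was not tested. The counts were 10 of 11 for SIN3 (all but Sin3b), 10 of 11 for NuRD (all but Mta1) and 6 of 7 for CoREST (all but Rcor2). The median of the strongest such fold enrichment was 5.09 in SIN3, 5.75 in NuRD and 4.54 in CoREST, against 3.98 over all protein-coding genes with such a peak. The 3 class I deacetylase genes had 3.32 to 3.96 within 1 kb of their own start sites. The 3.32 came from a peak of Hdac3 with its summit nearer to the start site of Rell2. Among partners of class IIa enzymes, 4 of 4 Mef2 genes and 7 of 7 genes of 14-3-3 proteins had such a peak, as did 8 of 12 genes of the kinases that phosphorylate them. Of the enzymes with the same or the opposite reaction, 7 of 7 sirtuin genes and 9 of 9 genes of other acetyltransferases had one.

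Among all these partner genes, 1 had a Mof+/- peak, a share near the 1.89% of all protein-coding genes. It was Rcor1, the CoREST scaffold, at chr12:111038666-111038950, with a fold enrichment of 4.91 from 15 fragments, 511 bp from a start site; in Mof+/+ tissue its strongest peak had 6.42. The other partner lists had 0 genes with a Mof+/- peak.

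**Figure D5:**
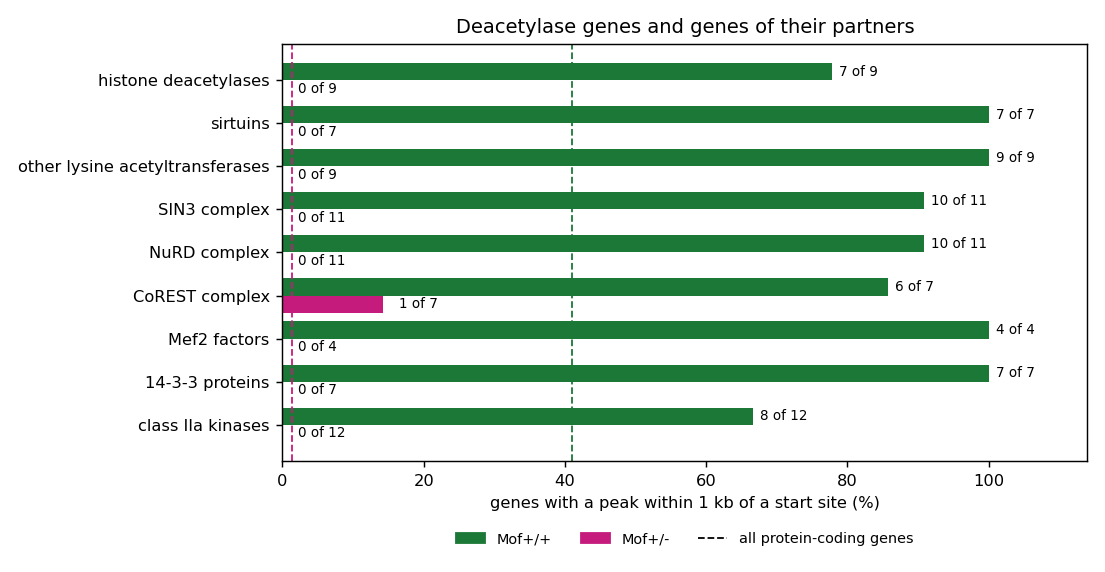
Percent of genes with a peak within 1 kb of a start site (x axis) in the 9 deacetylase genes and in lists of partner genes (rows), green for the Mof+/+ and pink for the Mof+/- list; dashed lines mark all protein-coding genes, 41.0% and 1.32%. Each list shown lies above the Mof+/+ line, which is not matched for CpG sites. The single Mof+/- bar above 0 is CoREST, from Rcor1.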

How the data were processed

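MOF ChIP-seq peaks of Mof+/+ and Mof+/- visceral white adipose tissue were analysed as 1 deposited list per genotype. Chromatin was cut with CviKI-1, an enzyme with a short recognition site, and sonicated, so fragment ends depend partly on sequence. The authors mapped reads to GRCm38 and called peaks with MACS2 relative to input, at a q-value of 0.1, per the study's methods. The submitters' processing notes give MACS2 version 2.1.1.20160309.3. Whether replicates were pooled is not given in the sources used here. A merging of peaks within 1000 bp is mentioned, but the deposited lists still hold closer peaks and were used as they stand.

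The fold enrichment deposited by the authors is a ratio of fragments over the summit to local input, with a pseudocount of 1 on both. The −log10 p-value and −log10 q-value deposited by the authors come from the same caller. The deposited summit offset was used as a coordinate. Fragments and background were solved from the fold enrichment and p-value, to within 0.001 of the −log10 p-value, for 99.9% of Mof+/+ and 98.6% of Mof+/- peaks, a step tested on simulated data. The lists give no library totals, so these fragments are the only measure of depth.

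Genes came from GENCODE M21 and sequence from GRCm38.p6, the authors' build. Coordinates count from 1. Peaks overlapped when sharing at least 1 bp. Intervals are exact Poisson at 95%. With 1 list per genotype no test was made. All 9 members are named, with partner genes only where a result turns on them. The members and the lists of partner and marker genes were chosen with earlier results of these data known. RefSeq promoter sequences were available for 6 of the 9 members, so windows were read from the genome for all. Python 3.11.15, numpy 2.4.6, scipy 1.17.1, pandas 2.3.3 and pysam 0.24.0 were used. H3 libraries and signal tracks were not analysed here, and 1 partner list is not reported here.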

Additional observations from a re-analysis of the deposited data

How the results depend on the processing

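Leaving aside counts of 0, 28 of 36 alternatives changed neither a count or median by more than 1.5 times nor a direction. The number of deacetylase genes with a Mof+/+ peak stayed between 6 and 8, except that 1, Hdac3, was left when the Mof+/+ list was cut to its 731 strongest peaks, the size of the Mof+/- list, and the total of 24 peaks then fell to 1. The total was 20 with peaks within 1000 bp of each other joined. It was 11 with peaks within 1 kb of a start site and 15 with q-values up to 0.001 only, where Hdac5 lost its peak. With the nearest start site, Hdac3 and Hdac9 lost theirs. The count of genes with a Mof+/- peak was 0 in each of the 7 alternatives run for it, but most of these only narrow the rule, so that it could not have risen. The strongest fold enrichment of Hdac10 moved from 4.42 to 2.74 both within 1 kb of a start site and with peaks whose summit lay nearest to an own start site, the latter an alternative chosen after seeing the data. The class IIa minus class I difference of −0.41 turned to 1.77 within 1 kb and to 1.56 with summits nearest to an own start site, where peaks at neighbours of Hdac1 and Hdac3 and the lone peak of Hdac9 drop out, and kept its sign with q-values up to 0.01, by p-value and by fragments. No paired analysis was possible because the columns of the peak lists carry no replicate number, and leaving out a replicate was not run for the same reason. Peaks of 12 to 27 fragments leave wide counting intervals, and the spread between animals cannot be estimated.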
